A study of Homo sapiens with 16 samples.

Results

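Immediate early genes are switched on within minutes of a stimulus or a stress, and their short-lived mRNAs were the subject here. The members were chosen by name, as the 10 genes JUN, JUNB, FOS, FOSL1, EGR1, KLF6, MYC, IER2, DUSP1 and ZFP36, each with a fixed span in the hg19 genome build. Every peak on the gene's own strand that touched its span was taken from all 8 deposited peak lists, where a peak is a stretch in which the authors' caller found enriched reads. This gave 83 peaks of 175749. Overlapping peaks of different lists were joined into 15 regions of 36802 in the whole series, and 9 of the 10 genes had at least 1 peak.

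The study pulled down PABPC1, which coats the poly(A) tails of cytoplasmic mRNAs, through a Myc tag and sequenced the RNA that came with it. The cells were H1299, a human lung cancer line, and stably expressed the tagged protein as wild type (WT) or with the change K512R. They received sodium arsenite (AS) at 500 µM, which causes oxidative stress, or no treatment. The 8 lists form 4 pairs of replicates, here called A to D. The sample titles and the names of the lists disagree for 3 of the pairs, so both readings are given. Pair A is untreated WT in both readings, and by its titles the immunoprecipitated RNA (IP). Pair B is the input of untreated WT cells by its titles and WT with AS by its names. Pair C is the IP of WT cells with AS by its titles and untreated K512R by its names. Pair D is the input of WT cells with AS by its titles and K512R with AS by its names. All groups carry the Myc-tagged transgene in a stable line. Whether a line is 1 clone, which promoter drives the transgene and whether replicates came from separate cultures are not stated in the labels, so the spread between replicates may be technical.

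The mRNAs of this class are short-lived because many carry AU-rich elements in their 3' untranslated regions. Proteins bind these elements and recruit the machinery that shortens the poly(A) tail, the stretch to which PABPC1 binds, and the mRNA is then degraded. JUN, JUNB, FOS and FOSL1 are subunits of the AP-1 transcription factor, EGR1 and KLF6 are zinc finger transcription factors, and MYC is a transcription factor of cell growth. DUSP1 is a phosphatase that switches off MAP kinases, and ZFP36 (tristetraprolin) is itself a protein that binds AU-rich elements and speeds mRNA decay. Oxidative stressors such as arsenite are known inducers of several of these genes.

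The lists held 19953 to 25111 peaks each, and D1, the list of replicate 1 of pair D, was the shortest. Lists give no read counts, so depth is unknown, and a missing peak does not tell a lower mRNA level from a weaker enrichment. Of the members' 83 peaks, 39 were wider than 1000 bp, against 7.48% of all peaks, and 21 had a score of 3100 or more, against 9.53%. These counts take the same place once per list. By joined region, 7 of 15 were wider than 1000 bp, against 8.58% of all regions. All 21 peaks with a score of 3100 or more lay in FOSL1, EGR1 and ZFP36. No peak on the opposite strand lay in any of the 10 spans. The identity of the cell line was not checked against marker genes here.

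**Figure D1:**
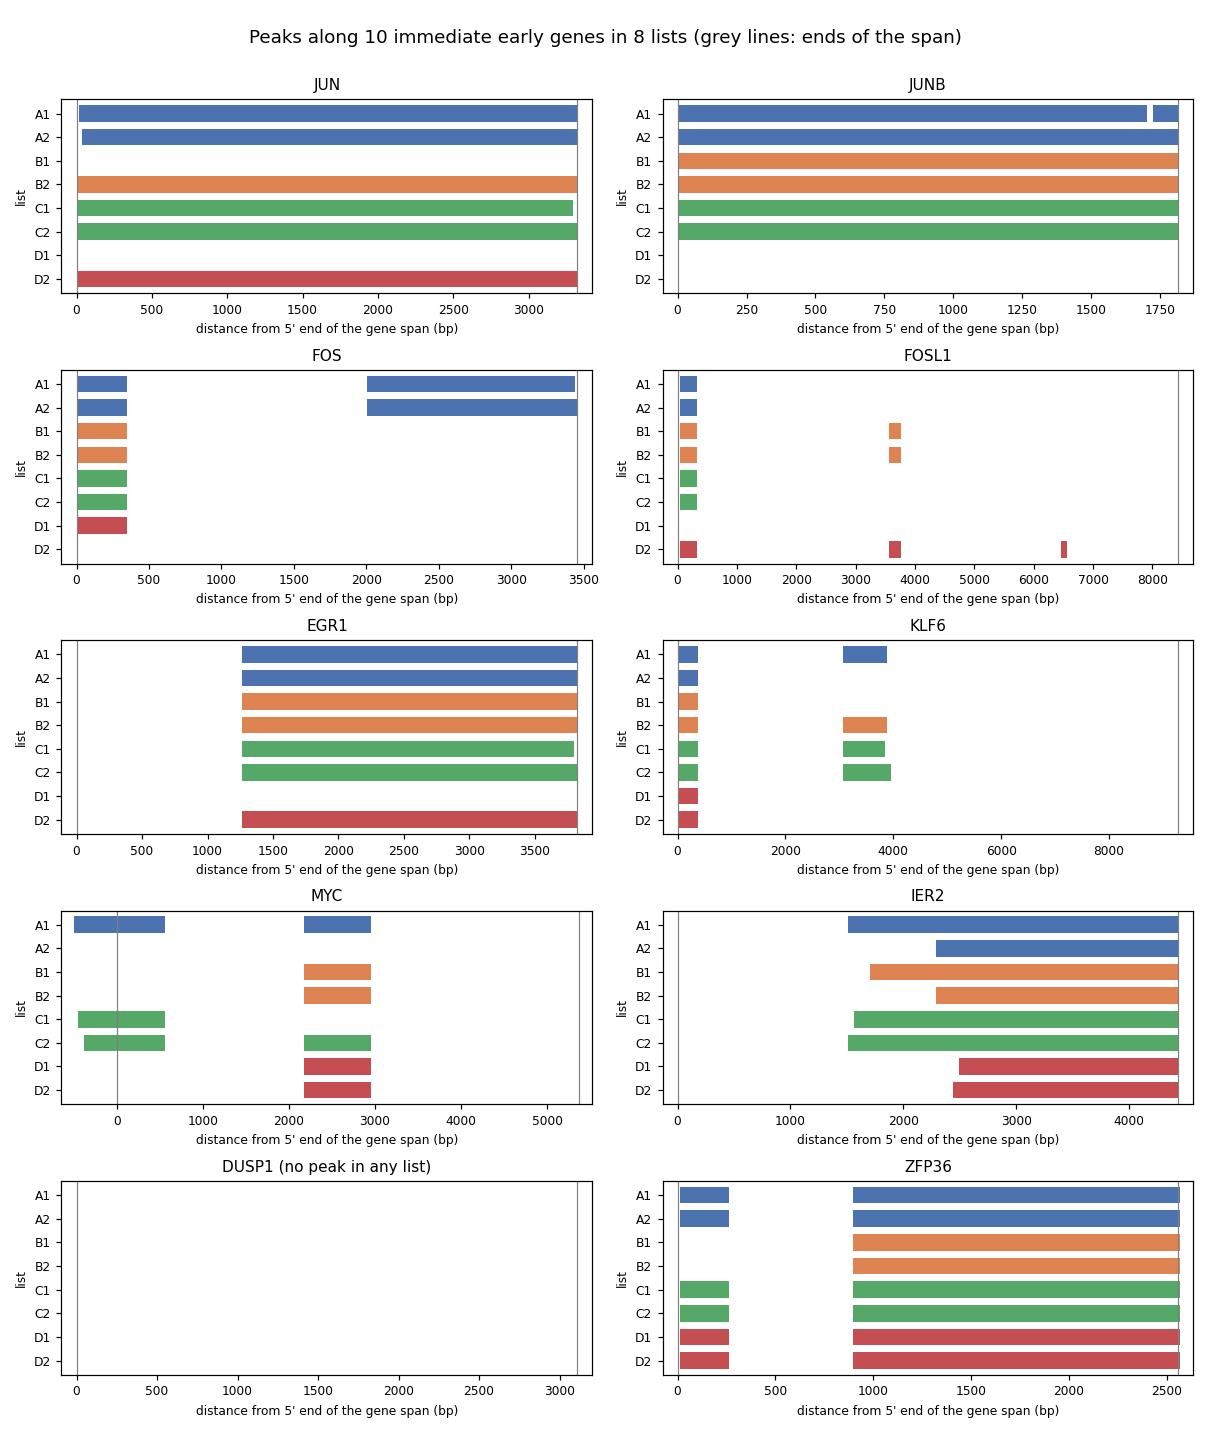
Peaks along the 10 gene spans in each list, with distance from the 5' end of the span in bp on the horizontal axis and the 8 lists (A1 to D2, 2 per pair) on the vertical axis; each bar is 1 peak and the grey lines are the ends of the span. Peaks covered nearly all of JUN and JUNB where present, the 3' part of EGR1, IER2 and ZFP36, and short stretches of FOSL1, KLF6 and MYC, while DUSP1 had none.

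JUN, the founding AP-1 subunit, lies on the minus strand of chromosome 1 at 59246463 to 59249785. Its single region took up the whole span of 3323 bp, and peaks covered 3305 and 3289 bp in the lists of A and 3290 and 3323 bp in those of C. In B and in D the replicates parted, with 0 bp in B1 and D1 and 3323 bp in B2 and D2. The peak was thus in all 4 lists of A and C and in replicate 2 alone of B and of D. Lists of A and C had a mean coverage of 3301.75 bp and those of B and D one of 1661.5 bp (p = 0.429, exact 2-sided permutation test, n = 4 lists each). The lower mean came from B1 and D1, which had no JUN peak.

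JUNB, a JUN relative that often tempers AP-1 activity, lies on chromosome 19, plus strand, from 12902310 to 12904125. Its span of 1816 bp was covered whole in A2 and in every list of B and C, and over 1795 bp in A1, where a gap of 21 bp split the peak. Both lists of D had no JUNB peak at all. JUNB was the only member gene with a peak in both lists of the 3 other pairs and in neither list of D. The share of all regions with this pattern was not counted. Of all regions in both lists of C, 25.3% were in neither list of D, and of those in both lists of B, 7.86%. The exact permutation p was 0.429 for B and D against A and C, and 0.429 for C and D against A and B (2-sided, n = 4 lists each).

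FOS, the classic partner of JUN, lies on chromosome 14, plus strand, from 75745481 to 75748937 and had 2 regions. The first, at 75745481 to 75745826, opens the span and measured 342 to 346 bp in 7 lists, all of which ended at the same base, and it was missing only from D2. The second, at 75747486 to 75748937, reaches the 3' end of the span and was found in the 2 lists of A alone, over 1432 and 1452 bp. Coverage of the FOS span was therefore 1786 ± 15.6 bp in A, 346 ± 0 bp in B and 344 ± 2.83 bp in C (SD, n = 2 each), and 346 and 0 bp in the lists of D. Every list of A lay above every other list, a split seen in the data, and the share of all regions with such a split was not counted. The untreated WT IP, pair A, was thus the sole pair in which peaks marked the 3' part of FOS. Its score in that part was 281.79 in A1 and 41.36 in A2, and with a minimum score of 50 the region remained in A1 alone.

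FOSL1 encodes FRA-1, the AP-1 subunit prominent in many carcinoma lines, and lies on the minus strand of chromosome 11 at 65659607 to 65668044. Its 3 regions were short and were among the best-scored of the members. The one nearest the 5' end, at 65667712 to 65667997, measured 286 bp with identical ends in 7 lists and was missing only from D1. A region of 198 bp at 65664280 to 65664477 appeared in B1, B2 and D2 and in no list of A or C. A region of 108 bp at 65661485 to 65661592 appeared in D2 alone. All 4 peaks of these inner regions had a score of 3100, a tied value that at least 9.22% of the peaks of each of these lists reached or passed. FOSL1 coverage was 286 bp in all 4 lists of A and C, 484 bp in both lists of B, and 0 and 592 bp in D1 and D2. The difference of B and D from A and C was 104 bp (p = 0.486, exact 2-sided permutation test, n = 4 each). Leaving out each list in turn gave 36.7 to 234 bp, with the lowest value without D2 (p = 0.886) and the highest without D1 (p = 0.0286, exact permutation tests, 3 lists against 4). The p without D1, the list with no FOSL1 peak, was the 1 value under 0.05 among 234 tests under alternative settings. Only without D1 did every remaining list of B and D lie above those of A and C in span coverage. Counted by single region, 4.1% of all regions did so without that list.

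EGR1, a zinc finger factor induced by growth signals, lies on chromosome 5, plus strand, from 137801181 to 137805004. Its region at 137802446 to 137805004 spanned 2559 bp up to the 3' end of the gene and began at the same base, position 1266 of the span, in all 7 lists that had it. Coverage was 2559 bp in A1, A2, B1, B2, C2 and D2, 2535 bp in C1 and 0 bp in D1. Apart from D1, which had no EGR1 peak, the lists were thus nearly alike in coverage. The exact permutation p was 1.0 for B and D against A and C and 0.429 for C and D against A and B (2-sided, n = 4 each).

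KLF6, a zinc finger factor with tumour suppressor roles, lies on the minus strand of chromosome 10 at 3818188 to 3827473. Its first region, at 3827105 to 3827473, opens the span and was present in all 8 lists over 341 to 369 bp, always ending at position 369. A second region, at 3823525 to 3824406, always began at position 3068 and covered 808 bp in A1, 806 bp in B2, 773 bp in C1 and 882 bp in C2. It was absent from A2, B1, D1 and D2. KLF6 coverage was 1182.5 ± 57.3 bp in C and 360 ± 12.7 bp in D (SD, n = 2 each), while the lists of A and of B each held 1 high and 1 low value. Over all lists the mean was 977.8 bp for A with C and 566 bp for B with D (p = 0.229, exact 2-sided permutation test, n = 4 each).

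MYC, the growth regulator, lies on chromosome 8, plus strand, from 128748315 to 128753680. The peaks of its first region ended at position 555 and began 382 to 503 bp before the span, so part of them lies outside the gene as drawn here. This region was found in A1, C1 and C2 and in no list of B or D. The second region, at 128750494 to 128751265, measured 772 bp with identical ends in all 6 lists that held it, and was missing from A2 and C1. Its score was as low as 17.4 in D2 and 22.76 in B1, and as high as 1061.54 in C2. The list A2 had no MYC peak at all. Coverage within the span was 1327 bp in A1 and C2, 555 bp in C1, 0 bp in A2 and 772 bp in all 4 lists of B and D. Since A and C held both the highest and the lowest values, the sets overlapped (p = 1.0, exact 2-sided permutation test, n = 4 each).

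IER2, a small nuclear protein of the early response, lies on chromosome 19, plus strand, from 13261282 to 13265718. It had 1 peak in every list, and all 8 ended at the same base, 4 bp past the span. Their 5' ends differed, at 7 positions between 1508 and 2490 of the span. Coverage was 2930 and 2152 bp in A, 2734 and 2148 bp in B, 2876 and 2930 bp in C, and 1948 and 2002 bp in D. The lists of D thus had the shortest IER2 peaks of all, and those of C were longer than both lists of B and of D. The share of all regions with either order was not counted. The 4 lists of A and C had a mean of 2722 ± 381 bp and the 4 of B and D one of 2208 ± 361 bp (SD), with p = 0.0571 in the exact 2-sided permutation test of 4 lists against 4, short of 0.05. The 2 sets overlapped through A2, which lay below B1.

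DUSP1, on the minus strand of chromosome 5 at 172195093 to 172198203, had no peak in any of the 8 lists. The nearest peak on its strand lay 313565 bp away. Whether its mRNA was absent from the cells or fell outside the lists, which carry the label mRNA but no statement of their filters, was not tested.

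ZFP36, the AU-rich element binding protein of the set, lies on chromosome 19, plus strand, from 39897487 to 39900045. Its main region, at 39898383 to 39900052, was 1670 bp wide with identical ends in all 8 lists and ran 7 bp past the 3' end of the span. Its score was 3100 in 7 lists and 3084.06 in C1. A second region of 253 bp near the 5' end, at 39897497 to 39897749, had identical ends in 6 lists and was missing from both lists of B. Coverage was 1916 bp in every list of A, C and D and 1663 bp in both lists of B. The main ZFP36 peak was thus the most constant feature of the set, and only its small 5' companion varied.

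**Figure D2:**
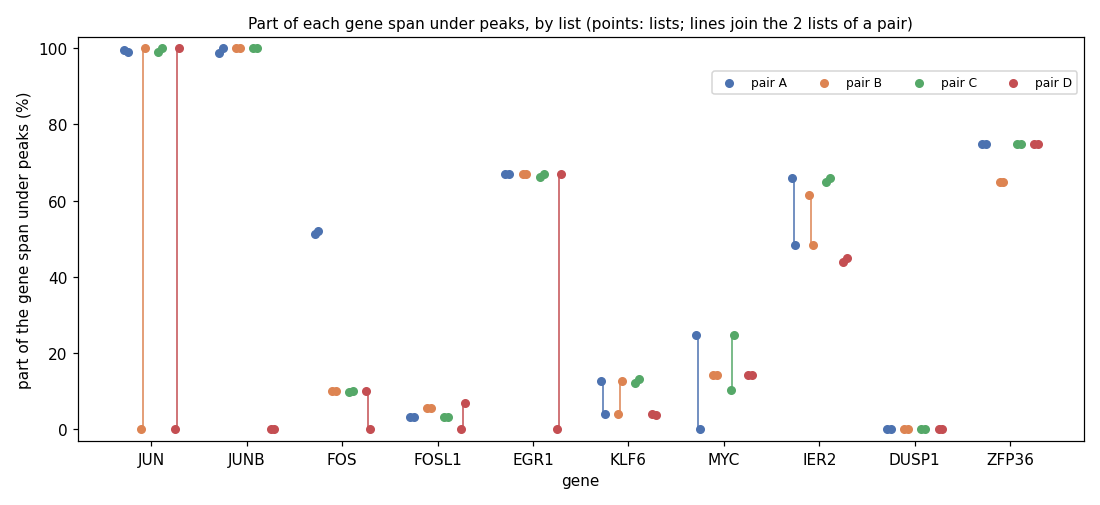
Part of each gene span that lay under peaks, in percent, for the 10 genes; points are lists, coloured by pair, and lines join the 2 lists of a pair. JUN, JUNB and EGR1 are either nearly constant or at 0, FOS stands at 51.3% and 52.0% in the lists of A and lower in every other list, and the lists of D are the lowest for IER2.

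Peak ends were largely shared. Of the 14 regions found in more than 1 peak, 8 began at a single base, 9 ended at a single base and 5 did both, namely FOSL1 regions 1 and 2, MYC region 2 and both regions of ZFP36. Whether these bases are exon borders was not analysed here, since the gene table used is of another build. In the last 500 bp of the span, where the 3' untranslated region and its AU-rich elements would lie, 6 genes had peaks in at least 1 list. EGR1 had them in 7 lists, JUN and JUNB in 6, IER2 and ZFP36 in all 8, and FOS in the 2 lists of A. FOSL1, KLF6 and MYC had no peak in the last 500 bp in any list, and their peaks lay at or near the 5' end or inside the span. In the first 500 bp, 7 genes had peaks in at least 1 list, so the members' peaks did not favour the 3' end by this count. The share of all genes with peaks at either end was not counted.

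The promoters of the members were read for sequence shared beyond the rule. RefSeq promoter windows (GRCh38.p14, 250 bases before to 50 after the start, both strands searched) were matched for 8 of the 10 genes, all except FOSL1 and MYC. The CArG box, the site of serum response factor, was found in 1 member, EGR1, and in 1.29% of all 35116 windows. EGR1 held 2 of them, shown here because no other member window carries the box. The capitals mark the box, which starts 105 and 83 bases before the start (chr5:138465364-138465393 and chr5:138465386-138465415, plus strand).
EGR1 upstream box: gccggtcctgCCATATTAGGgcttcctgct
EGR1 downstream box: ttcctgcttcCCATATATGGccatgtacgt

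The motif TGACNTCA, a form of the site for AP-1 and CREB family dimers, was found in 4 of the 8 member windows and in 7.72% of all windows. The members with a match were JUN, KLF6, DUSP1 and ZFP36, the last of them just after the start. The windows of JUN, KLF6 and DUSP1 are shown because JUN is a subunit of the factor that reads this motif and DUSP1 is the member without a peak. Capitals mark the motif, on the minus strand of the genome at chr1:58784097-58784124, chr10:3785364-3785391 and chr5:172771303-172771330.
JUN: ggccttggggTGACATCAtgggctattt
KLF6: tggccggagcTGACATCAtcggcgcgca
DUSP1: gcagggcgggTGACGTCAccgccccgtc

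JUN and KLF6 hold the same 8 letters. TATAAA, the core of the TATA box, was found in 3 of 8 member windows (JUNB, FOS and DUSP1) and in 11.5% of all windows. Motif matches describe these windows and show no binding.

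Pair B was then set against pair A, input against IP of untreated WT cells by the titles and AS against none in WT cells by the names. In each comparison of one pair against a reference pair, named last, a region was called lost where both lists of the reference pair and neither of the other had it, and gained in the reverse case. Of 10 member regions found in both lists of A, 2 were lost, the 3' region of FOS and the 5' region of ZFP36, against 19.1% of all regions tested. Of 9 found in both lists of B, 1 was gained, the second region of FOSL1, against 17.1%. Without A1 the gained regions were 2, with MYC region 2 added. With 2 lists against 2 no exact test can pass 0.05, so no p is given for these counts.

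Pair C against pair A compares AS with none in WT IP by the titles and K512R with WT without treatment by the names. Of 10 regions in both lists of A, 1 was lost, the 3' region of FOS, against 3.23% of all regions. None of the 11 regions in both lists of C was gained, against 8.75%, while without A1 the gained regions were 2, KLF6 region 2 and MYC region 1. This comparison and the one before share the lists of A, so the FOS region counts in both for the same lists.

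Pair D against pair C compares input with IP under AS by the titles and AS with none in K512R cells by the names. Of 11 regions in both lists of C, 3 were lost, against 25.3% of all regions. These were JUNB, the second region of KLF6 and the first region of MYC. None of the 5 regions in both lists of D was gained, against 13.3%. Without D1 the gained regions were 2, both in FOSL1, and without C2 there was 1, MYC region 2. JUN, EGR1 and FOSL1 region 1 were also missing from D1 but stayed in D2, and with D1 as the single list of D, without D2, 6 regions were lost. FOS region 1 was missing from D2 and present in D1.

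Pair D against pair B compares AS with none in WT input by the titles and K512R with WT under AS by the names. Of 9 regions in both lists of B, 1 was lost, JUNB, against 7.86% of all regions. Of 5 regions in both lists of D, 1 was gained, the 5' region of ZFP36, against 6.3%. Without D2 the lost regions were 4, and without D1 or without B1 they were 2. Without D1 the gained regions were also 2, with FOSL1 region 3 added. The lists D1 and D2 held 6 and 10 of the 15 member regions, and 54.1% and 56.8% of all regions. The other lists held 9 to 13 member regions and 55.1% to 68.1% of all regions, so D1 was the lowest list in both.

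Over the 4 pairs, 3 of the 15 member regions had a peak in all 8 lists (KLF6 region 1, IER2 and ZFP36 region 2), against 29.5% of all regions. Counted by gene, KLF6, IER2 and ZFP36 were the 3 members with a peak in every list, and without D1 they were 5, with FOSL1 and EGR1 added. With a score of at least 50 they were 2, without KLF6, whose peaks scored 20.24 in D1 and 30.28 in D2. In covered length, none of the 15 member regions separated the 4 lists of A and C from the 4 of B and D, where 5.98% of all regions were lower in B and D and 3.3% higher. Without A2, 2 member regions were lower in B and D (IER2 and MYC region 1), against 7.54% of all regions, and without B1 it was 1 (IER2), against 6.79%. None separated A and B from C and D either, where 0.223% of all regions were lower in C and D and 0.163% higher. No member region had an exact permutation p under 0.05 in either direction of grouping, before any adjustment. Over all 36802 regions, 3417 did for the first grouping and 142 for the second, and none passed 0.05 after Benjamini-Hochberg adjustment, the smallest adjusted p being 0.308 and 1.0 in turn (exact permutation tests). The smallest p that 4 lists against 4 can give is 0.0286.

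Over all members together, the covered length per list was 17070 and 14184 bp in A, 10743 and 14286 bp in B, 14758 and 15726 bp in C, and 5351 and 11515 bp in D. The lists D1 and B1 were the lowest, and both are replicate 1 of their pair. The widest peaks in this sum are those of JUN, IER2 and EGR1.

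The authors' score, whose unit is not stated, orders the peaks of a list. To set lists of unequal length side by side, each was limited to its 19953 best-scored peaks, and percentiles were taken within these, with 100 at the top. EGR1 stood at 94.9 and 94.2 in A and at 94.8 and 94.4 in C. It stood at 1.79 and 84.5 in B, in D2 at 23.3, and D1 had no peak. EGR1 thus kept its place near the top in all 4 lists of A and C, while its peak in B1, of the same 2559 bp, was among the poorest-scored of that list.

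JUN also stood higher in A and C than in B and D, at 81.1 and 83.4 in A, 74.5 and 82.4 in C, 39.4 in B2 and 55.1 in D2. It had no peak in B1 or D1. JUNB stood at 69.2 and 63.3 in A, 67.3 and 59.4 in C, 30.6 and 43.3 in B, and had no peak in D. In JUN, JUNB and EGR1 no list from B or D came up to any list from A or C. Counting a missing peak as lowest, this held for 3 of the 15 member regions and for 16.3% of all regions, so the members' count is near the background.

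IER2 went the other way, at 60.7 and 77.5 in A, 74.6 and 72.8 in C, 79.2 and 79.8 in B and 80.0 and 79.8 in D, every list of B and D above every list of A and C. It was the 1 member region of 15 to do so, against 14.6% of all regions. Its peaks in D were thus the narrowest and not the poorest-scored. The first region of FOS stood at 72.8 and 78.5 in A, 87.3 and 85.9 in B and 80.0 in D1, but at 23.5 and 8.89 in the lists of C. The first region of KLF6 was higher in B, at 54.1 and 66.9, than in any other list, where it ranged from 9.34 to 25.8. For neither of these regions of FOS and KLF6 was the share of all regions with such a split counted.

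No member region separated A and B from C and D in score, against 0.689% of all regions lower and 0.429% higher in C and D. The main region of ZFP36 stood between 90.0 and 95.0 in all 8 lists, and the first region of FOSL1 between 89.5 and 99.9 in the 7 lists that held it. Percentiles are a description, since scores tied at 3100 cap the upper end and no test was run on them.

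**Figure D3:**
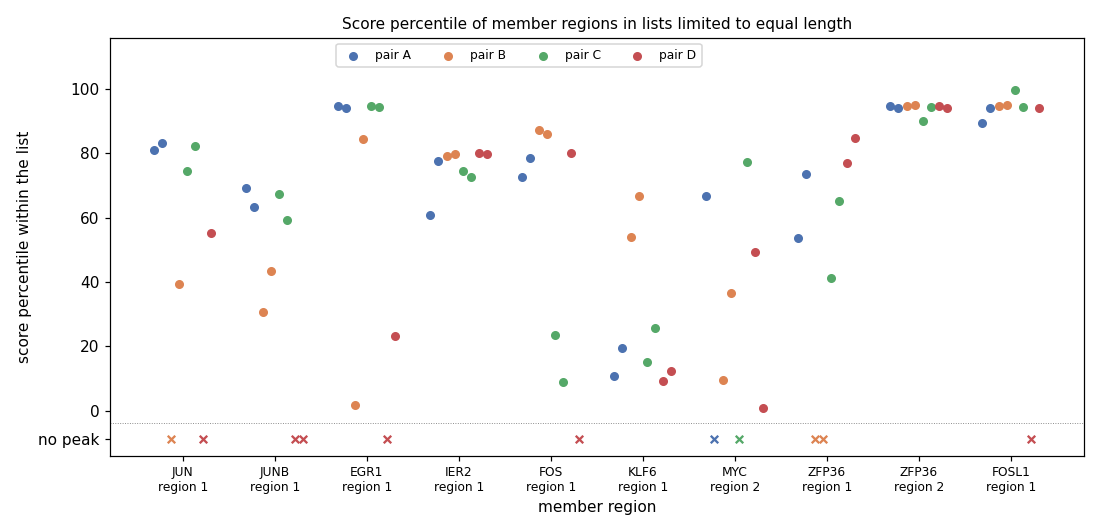
Score percentile within lists limited to equal length, for 10 member regions; points are lists A1 to D2 from left to right, coloured by pair, and crosses in the lowest row are lists without a peak. The points of pairs A and C lie above those of B and D for JUN, JUNB and EGR1, below them for IER2, and the points of pair C are the lowest measured ones for FOS region 1.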

How the data were processed

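The authors deposited 1 list of MACS-named peaks for each of 8 samples, with a score per peak, per the file headers and names. The submitters' processing notes name cutadapt 1.9.3, HISAT2 2.0.4 and hg19. For the caller's version, control library, threshold and strand assignment, the sources used here give nothing. The remaining 8 of the 16 samples, all titled K512R, have no list analysed here. Groups follow the sample titles.

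A peak counted for a gene where it overlapped its span by at least 1 bp on the same strand, and all 10 members are named. The spans' symbols and chromosomes were checked against RefSeq for 10 of 10. Covered length per list was compared by exact 2-sided permutation over 70 orders, for members and for all regions with Benjamini-Hochberg adjustment, and the code was tested on simulated data. The members and lists were chosen with earlier results of these data known, and the score percentiles, the 500 bp windows and the motifs after their values had been seen. Other immediate early genes were not analysed here, since no hg19 gene table was used. Python 3.11.15, numpy 2.4.6, pandas 2.3.3 and matplotlib 3.10.9 were used.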

Additional observations from a re-analysis of the deposited data

How the results depend on the processing

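Requiring at least 50% of a peak inside the span, taking either strand, joining peaks up to 100 bp apart and limiting lists to equal length moved no count of members by over 1.5 times. With a score of at least 50, regions lost numbered 1 for B against A, 0 for C against A and 2 for D against B. With presence in 1 or 2 of 2 lists against 0 of 2, D against C gained 2, and D against B lost 2 and gained 2. Leaving out 1 list in turn, members with a peak in all lists ranged from 3 to 5, and members whose coverage did not overlap between A and C and B and D from 0 to 1 (IER2 without A2 or without B1, FOSL1 without D1). Regions gained ranged from 1 to 2 for B against A, 0 to 2 for C against A, 0 to 2 for D against C and 1 to 2 for D against B, and regions lost from 3 to 6 for D against C and 1 to 4 for D against B. The coverage difference of C and D from A and B changed sign in some of these for JUN (-821.7 to 832.7 bp), KLF6 (-151.8 to 138.8 bp), MYC (-100.5 to 341.8 bp), IER2 (-215.7 to 111.7 bp) and FOSL1 (-194.3 to 3 bp), and that of B and D from A and C for MYC (-297.7 to 144.7 bp) and EGR1 (-847 to 6 bp). For KLF6 the former was 112.5 bp with a score of at least 50. The cause was not tested. None of these differences passed 0.05 in the comparison of all lists. With replicate numbers as a replicate block, 1 member, IER2, had all 4 paired differences of B and D from A and C in 1 direction (p = 0.125, exact sign-flip permutation test, the smallest its 16 orders can give). The share of all regions with 4 such paired differences was not counted, so this is no result particular to IER2. Deviations of same-numbered lists in covered length correlated at 0.00645 to 0.0203 across 36802 regions. Whether lists of the same number share a culture or a batch was not tested. The depth of the libraries is unknown.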
